A study of Mus musculus with 6 samples.

Results

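Myeloid regulators and granule genes, 10 in number, were followed in mouse haematopoietic stem cells that carry an inducible ETV6-RUNX1 fusion. They were the transcription factor genes Spi1, Cebpa, Cebpe, Gfi1 and Irf8, the granule protein genes Mpo, Elane, Ctsg and Prtn3, and the receptor gene Csf1r. These 10 genes were chosen by symbol, and each matched 1 row of a table of 55471 gene IDs. The libraries were made from total RNA of stem cells sorted as lineage-negative, Kit+, Sca1+, CD48- and CD150+. All 6 libraries carry the genotype label ETV6-RUNX1. The uninduced group (n = 3) received no doxycycline, and the induced group (n = 3) came from mice fed doxycycline for 2 weeks. The age of the mice, the promoter that drives the fusion and whether cells of several mice were pooled are not given in the sources used here. No library of doxycycline-fed mice without the fusion was analysed here, so effects of doxycycline and of the fusion cannot be told apart. Nothing in the labels says that the 3 libraries of a group came from separate animals, and p-values then measure only the spread between these libraries, which may be technical.

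Granulocytes and monocytes arise from stem cells through progenitors whose fate is set by a small set of transcription factors. PU.1, the product of Spi1, opens myeloid genes, C/EBPα directs cells into the granulocyte and monocyte lineage, C/EBPε drives late granule maturation, GFI1 represses monocytic genes and restrains stem cell cycling, and IRF8 favours monocytes and dendritic cells. Promyelocytes then fill their primary granules with myeloperoxidase (Mpo) and with the related serine proteases neutrophil elastase (Elane), cathepsin G (Ctsg) and proteinase 3 (Prtn3). Monocytes and macrophages need the M-CSF receptor, encoded by Csf1r.

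The promoters of the 4 granule genes are shown because these genes are textbook targets of PU.1 and are induced together in promyelocytes, while here Prtn3 passed the test, Mpo and Elane did not, and Ctsg was too low to be tested. Windows of the 250 bases before the transcription start were found for 7 of the 10 genes in RefSeq (GRCm38.p6). Each line below gives the first part of the window, up to the first GENCODE exon that it meets, 5′ to 3′ on the gene's strand, with the letters GAGGAA (a core of PU.1 sites) and TGTGGT or its reverse complement (a core of RUNX sites) in capitals.
Prtn3 (chr10:79879417-79879613, plus strand): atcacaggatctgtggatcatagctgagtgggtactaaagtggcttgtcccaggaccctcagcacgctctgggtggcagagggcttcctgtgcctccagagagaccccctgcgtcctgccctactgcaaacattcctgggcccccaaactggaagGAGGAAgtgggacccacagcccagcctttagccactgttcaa
Elane (chr10:79886062-79886246, plus strand): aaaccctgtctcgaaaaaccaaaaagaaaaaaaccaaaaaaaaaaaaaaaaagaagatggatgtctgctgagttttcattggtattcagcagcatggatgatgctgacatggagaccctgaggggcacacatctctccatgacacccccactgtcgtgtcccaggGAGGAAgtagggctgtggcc
Mpo (chr11:87793534-87793580, plus strand): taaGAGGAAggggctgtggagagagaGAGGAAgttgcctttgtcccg
Ctsg (chr14:56102575-56102824, minus strand): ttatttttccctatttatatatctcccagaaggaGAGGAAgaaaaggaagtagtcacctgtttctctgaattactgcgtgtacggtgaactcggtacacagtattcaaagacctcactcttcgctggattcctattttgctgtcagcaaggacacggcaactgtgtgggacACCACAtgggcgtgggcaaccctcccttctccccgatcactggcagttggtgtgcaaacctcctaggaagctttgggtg
For Mpo, Elane and Ctsg the printed part lies upstream of every annotated transcript of the gene. For Prtn3 it lies directly before the first exon of the full-length protein-coding transcript, and within an intron of 1 of the 6 annotated transcripts, a noncoding one that starts further upstream.
All 4 windows held GAGGAA on the gene's strand, beginning 95 bases before the start in Prtn3, 85 bases before it in Elane, 216 in Ctsg, and at 247 and 224 in Mpo. Of all 32851 promoter windows of this length, 23.3% held these letters on either strand. TGTGGT was found, on the opposite strand, in the Ctsg window and in no other window of the 7 genes, against 14% of all windows. A search for TTGCNNAA (a C/EBP pattern, in 9.56% of all windows) matched 1 of the 2 Gfi1 windows and no window of the other 6 genes, and AAATCA (a GFI1 pattern, in 12.4% of all windows) matched both Irf8 windows. These are matches of letters and not measured binding, and the window of Prtn3, which rose, did not differ in this core from that of Elane, which was not called.

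Levels are given in TPM, a unit that divides the reads of a gene by its length and by the total of the library. Depth is unknown, because TPM does not keep it, so no counting interval can be given. In uninduced cells the order of mean levels was Spi1, Mpo, Prtn3, Elane, Gfi1 and Irf8, followed by Cebpe, Csf1r, Cebpa and Ctsg, each below 1 TPM on average. The ranges of Spi1, Mpo and Prtn3 overlapped in that order, as did those of Gfi1 and Irf8, while Prtn3 and Elane, and Elane and Gfi1, did not overlap. In induced cells Prtn3 and Spi1 stood first with overlapping ranges, and Gfi1 stood above Mpo without overlap.

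**Figure D1:**
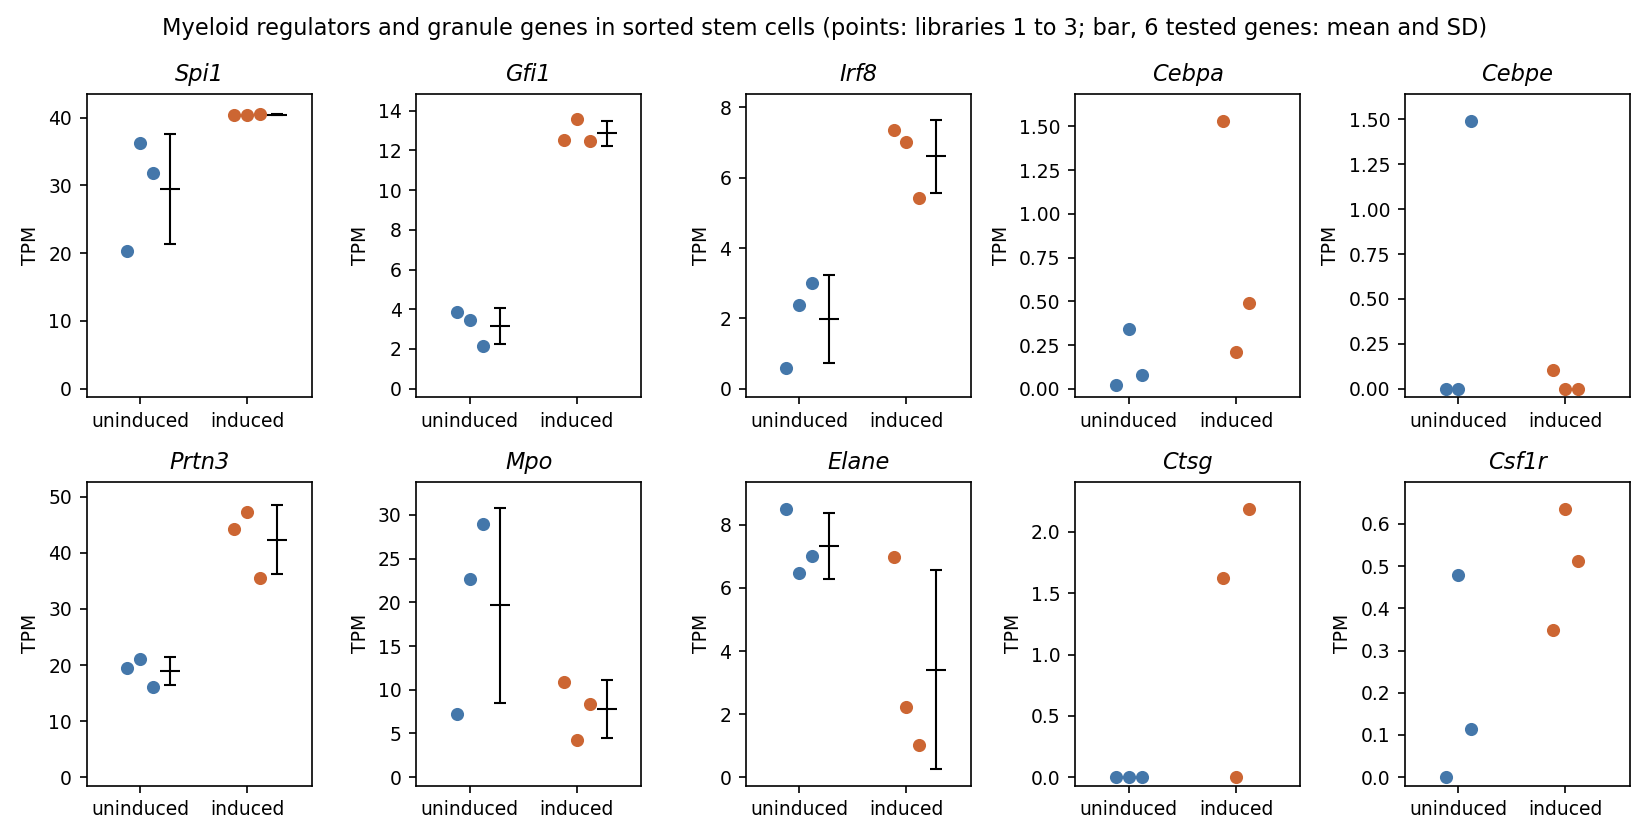
TPM of the 10 genes in each of the 3 uninduced and 3 induced libraries, 1 panel a gene with its own vertical axis; for the 6 tested genes the bar gives the mean and SD. Spi1, Gfi1, Irf8 and Prtn3 have no overlap between the groups, and the other 6 genes do.

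Differences were tested with limma on log2(TPM + 1) across the 13470 genes that averaged 1 TPM or more, and p-values were adjusted over all of them by the Benjamini-Hochberg method. Of the 10 genes, 6 reached that mean (Spi1, Gfi1, Irf8, Mpo, Elane and Prtn3). Gfi1 and Prtn3 passed an adjusted p of 0.05, both higher in induced cells, and at an unadjusted p under 0.05 there were 3 higher (with Irf8) and 2 lower (Mpo and Elane). Of all tested genes, 11.5% passed in either direction, 1.29% higher and 10.2% lower. At an unadjusted p under 0.05, 27.9% of all tested genes passed, 3.73% higher and 24.2% lower. The scale itself was offset between the groups: the median change of all tested genes was -0.35, and nuclear protein-coding genes held 26.6% to 32.9% of the TPM in uninduced and 20.5% to 23.2% in induced libraries. After median-of-ratios scaling, which removes this offset (median 0.0033), 5.98% of genes passed, 2.88% higher and 3.10% lower, and of the 6 genes Gfi1, Prtn3 and Irf8 passed. On the deposited scale the groups did not overlap for Gfi1, Irf8, Spi1 and Prtn3, all higher in induced cells. Of all tested genes 33.1% had no overlap, 4.83% with the induced libraries higher and 28.2% with them lower.

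Gfi1 (ENSMUSG00000029275, chr5:107716657-107726036, minus strand), which encodes a zinc finger repressor, was at 3.88, 3.46 and 2.16 TPM without induction and at 12.5, 13.6 and 12.5 TPM with it. Every induced library was above every uninduced library, by a wide margin. The mean rose 4.06-fold, from 3.17 ± 0.894 to 12.9 ± 0.623 TPM (SD, n = 3 in both groups), which is a log2 change of 1.76 (SE 0.30, 95% interval 1.08 to 2.44, limma adjusted p 0.00709). After median-of-ratios scaling the change was 2.10 (limma adjusted p 0.00447). Gfi1 passed under all 16 alternative settings, with changes from 1.13 to 2.39. The gene overlaps the noncoding gene A430072P03Rik on the opposite strand over 880 bases. That gene was listed at 0 without induction and read 1.85, 0.279 and 0.908 TPM with it, and whether the authors' counting used strand is not given in the sources used here.

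Irf8 (ENSMUSG00000041515, chr8:120736358-120756694, plus strand), which encodes an interferon regulatory factor, was at 0.592, 2.38 and 2.99 TPM without induction and at 7.37, 7.02 and 5.42 TPM with it. The groups did not overlap, and the uninduced libraries were the more scattered. The mean was 1.99 ± 1.25 against 6.60 ± 1.04 TPM (SD, n = 3 each), a ratio of 3.32. The log2 change of 1.44 (SE 0.42, 95% interval 0.50 to 2.39) missed the threshold on the deposited scale (limma adjusted p 0.0547), whereas median-of-ratios scaling brought it past (1.74, limma adjusted p 0.0459). It passed under 5 of 15 alternatives, with adjusted p from 0.0382 to 0.165. Its only overlapping gene on the same strand, Gm20388, was listed at 0 in all 6 libraries.

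Spi1 (ENSMUSG00000002111, chr2:91082390-91115756, plus strand), the PU.1 gene, was at 20.4, 36.2 and 31.8 TPM in the uninduced libraries. The induced libraries were nearly identical to each other, at 40.4, 40.4 and 40.5 TPM, and lay just above the highest uninduced one. The mean was 29.5 ± 8.17 against 40.4 ± 0.0567 TPM (SD, n = 3 in both groups), which is a log2 change of 0.48 (SE 0.24, 95% interval -0.05 to 1.01, limma adjusted p 0.217). After median-of-ratios scaling the change was 0.88 (limma adjusted p 0.0617), and it passed in 1 of 16 alternatives, rescaling to nuclear protein-coding genes (0.93, adjusted p 0.0345). The interval includes no change and a rise of 1.01 log2 units.

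Cebpa and Cebpe were close to 0. Cebpa (ENSMUSG00000034957, chr7:35119293-35121928, plus strand) was at 0.0191, 0.340 and 0.0779 TPM without induction and at 1.53, 0.209 and 0.491 TPM with it. The groups overlapped (exact two-sided permutation test, p = 0.2), and the highest value was that of induced replicate 1. Cebpe (ENSMUSG00000052435, chr14:54710360-54712174, minus strand) was listed at 0 in 4 of the 6 libraries, with 1.49 TPM in uninduced replicate 3 and 0.106 TPM in induced replicate 1. Both fell below the mean of 1 TPM and were not tested. Without that filter their limma adjusted p was 0.412 and 0.593. Other genes of the C/EBP family were higher: Cebpb was at 12.1 ± 0.706 against 8.41 ± 3.55 TPM (SD, n = 3 in both groups, limma adjusted p 0.307), and Cebpg was at 10.7 ± 5.58 against 7.29 ± 3.99 TPM (SD, n = 3 in both groups, limma adjusted p 0.493). Cebpd was at 0.0758, 1.75 and 0.214 TPM without induction and at 2.95, 2.16 and 1.18 TPM with it (limma adjusted p 0.256). The groups overlapped for all 3 of these genes.

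Among the granule genes tested, Prtn3 (ENSMUSG00000057729, chr10:79874476-79883174, plus strand) was the one called higher. Proteinase 3 is a neutrophil serine protease and the autoantigen of granulomatosis with polyangiitis. It was at 19.5, 21.0 and 16.1 TPM without induction and at 44.2, 47.4 and 35.4 TPM with it. All induced libraries were above all uninduced ones. The mean rose 2.24-fold, from 18.9 ± 2.50 to 42.3 ± 6.18 TPM (SD, n = 3 in both groups), which is a log2 change of 1.12 (SE 0.21, 95% interval 0.64 to 1.602, limma adjusted p 0.0114), and 1.52 after median-of-ratios scaling (limma adjusted p 0.00457). The call held under 15 of 16 alternatives and was lost without induced replicate 2 (1.04, adjusted p 0.0579). The first 159 annotated bases of Prtn3, in the noncoding transcript, overlap the start of Plppr3 on the opposite strand. Plppr3 was at 32.3, 16.1 and 11.01 TPM without induction and at 22.9, 24.9 and 22.9 TPM with it, which overlapped.

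Elane (ENSMUSG00000020125, chr10:79886247-79888215, plus strand), which lies next to Prtn3 and encodes neutrophil elastase, was at 8.50, 6.48 and 7.005 TPM in the uninduced libraries. It was at 6.99, 2.23 and 1.02 TPM in the induced ones. Induced replicate 1 lay within the uninduced range and the other induced libraries were below it. The mean was 7.33 ± 1.048 against 3.41 ± 3.16 TPM (SD, n = 3 in both groups), which is a log2 change of -1.15 (SE 0.49, 95% interval -2.23 to -0.07) that did not pass (limma adjusted p 0.155). Without induced replicate 1 it was -1.70 with an adjusted p of 0.0485, the only one of 16 alternatives in which it passed. After median-of-ratios scaling the change was -0.82 (limma adjusted p 0.395).

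Mpo (ENSMUSG00000009350, chr11:87793581-87804413, plus strand), the gene of the enzyme that makes hypochlorous acid in primary granules, was at 7.24, 22.7 and 29.0 TPM without induction and at 10.9, 4.30 and 8.34 TPM with it. The groups overlapped, with uninduced replicate 1 below the highest induced library. The mean was 19.6 ± 11.2 against 7.84 ± 3.32 TPM (SD, n = 3 in both groups), which is a log2 change of -1.10 (SE 0.49, 95% interval -2.19 to -0.02, limma adjusted p 0.173). Without uninduced replicate 1 it was -1.67 and passed (adjusted p 0.0376), and it passed in no other of the 16 alternatives. After median-of-ratios scaling it was -0.74 (limma adjusted p 0.450).

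Ctsg (ENSMUSG00000040314, chr14:56099881-56102574, minus strand), the cathepsin G gene, was listed at 0 in every uninduced library and read 1.62, 0 and 2.18 TPM after induction. Csf1r (ENSMUSG00000024621) was at 0, 0.480 and 0.114 TPM without induction and at 0.348, 0.634 and 0.512 TPM with it. On the deposited scale the groups overlapped for both genes (exact two-sided permutation p 0.4 for Ctsg and 0.2 for Csf1r), and neither gene reached the filter. After median-of-ratios scaling Csf1r was at 0, 0.384 and 0.109 against 0.399, 0.783 and 0.553, without overlap but close to 0. Without the filter the limma adjusted p was 0.298 for Ctsg and 0.403 for Csf1r.

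**Figure D2:**
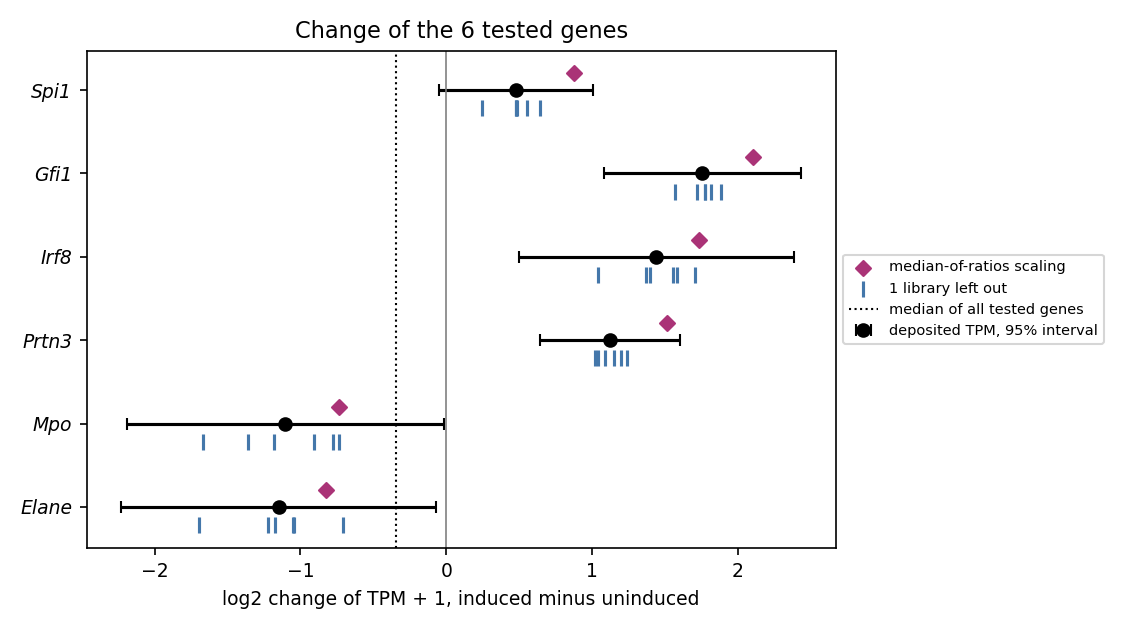
Log2 change of TPM + 1, induced minus uninduced, for the 6 tested genes: black points are deposited TPM with the 95% interval from limma, diamonds the change after median-of-ratios scaling, and blue ticks the change with 1 library left out. The intervals of Gfi1, Prtn3 and Irf8 lie above 0 and those of Mpo and Elane below it, Gfi1 and Prtn3 being the genes that passed after adjustment, and the dotted line marks the median of all tested genes at -0.35.

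Levels of 2 genes in the same library share that library's total, so their ratio is the same under any scaling by 1 factor per library (quantile normalization is not of that kind). The 6 ratios below were chosen after the values had been seen. Prtn3 over Elane was 2.29, 3.24 and 2.30 in the uninduced libraries and 6.32, 21.2 and 34.9 in the induced ones. Prtn3 over Mpo was 2.69, 0.926 and 0.557 against 4.06, 11.01 and 4.25. Neither ratio overlapped between the groups. Mpo over Elane did overlap, at 0.851, 3.50 and 4.13 against 1.56, 1.93 and 8.21.

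Among the factors, Spi1 over Gfi1 was 5.26, 10.5 and 14.7 in the uninduced and 3.22, 2.97 and 3.25 in the induced libraries. Spi1 over Irf8 was 34.4, 15.2 and 10.6 against 5.48, 5.75 and 7.46. In both cases every uninduced ratio was above every induced one. Gfi1 over Irf8 was 6.55, 1.45 and 0.722 against 1.70, 1.93 and 2.30, with overlap. The 4 ratios without overlap each reached p = 0.1 in the exact two-sided permutation test, its floor for 3 against 3, and 0.15 after adjustment over the 6 ratios.

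**Figure D3:**
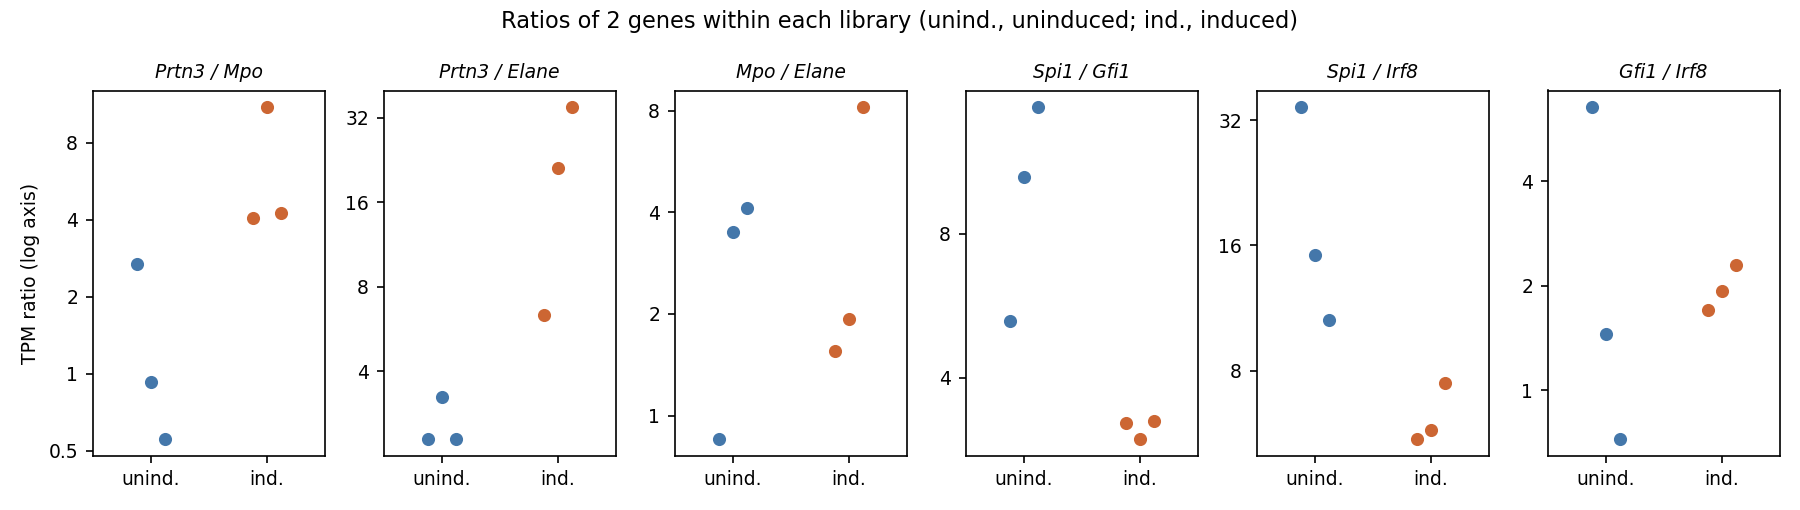
Ratio of the TPM of 2 genes within each library, on log axes, for 3 pairs of granule genes and 3 pairs of transcription factor genes; each point is 1 library. Prtn3 over Elane and Prtn3 over Mpo are higher, and Spi1 over Gfi1 and Spi1 over Irf8 lower, in all 3 induced libraries, while the other 2 ratios overlap.

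The summed TPM of Mpo, Elane, Prtn3 and Ctsg overlapped between the groups on the deposited scale, at 35.2, 50.2 and 52.1 in the uninduced and 63.7, 53.9 and 47.0 in the induced libraries. With median-of-ratios scaling the groups separated, at 29.9, 40.2 and 50.1 against 73.0, 66.5 and 50.8, with the lowest induced value just above the highest uninduced one (exact two-sided permutation p 0.1, the smallest possible for 3 against 3). The share of Prtn3 in the sum, which such scaling leaves as it is, did not overlap. It was 55.3%, 41.9% and 30.9% in the uninduced libraries and 69.4%, 87.9% and 75.4% in the induced ones. The share of Elane was 24.1%, 12.9% and 13.4% against 10.98%, 4.14% and 2.16%. Prtn3 is in the denominator of that share, and the TPM of Elane itself overlapped between the groups. The longest identical run shared by annotated transcripts of Prtn3 and Elane is 17 bases, against reads of 100 bases, and for the other protease pairs it is shorter (12 and 9 bases).

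By distance of the centred log2(TPM + 1) values over the 6 libraries, among the 8996 genes averaging 5 TPM or more, the genes nearest to Gfi1 were Rasip1 (distance 0.25, log2 change 1.81) and Ndrg2 (0.30, log2 change 1.78). Those nearest to Prtn3 were Mllt3 (0.40, log2 change 1.16), a stem cell regulator, and Col4a2 (0.45, log2 change 0.91). This likeness is over 6 libraries that form 2 groups, so a like step between the groups is enough to give it.

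Other myeloid regulators were described from a list of 18 genes, of which 16 were tested. With limma 0 were called higher and 4 lower (0 and 5 at an unadjusted p under 0.05). The median change was -0.53, against -0.35 for all tested genes. Egr1, an immediate early gene that favours the monocytic fate, fell from 128 ± 10.05 to 27.5 ± 1.80 TPM (SD, n = 3 in both groups, with a log2 change of -2.18, limma adjusted p 0.000197). Gfi1b, the paralogue of Gfi1 that acts in erythroid and megakaryocytic cells, was at 16.4, 18.3 and 29.0 TPM without induction and at 10.9, 3.85 and 6.12 TPM with it (log2 change -1.54, limma adjusted p 0.0276). Gfi1 and Gfi1b thus moved in opposite directions on the deposited scale, and their transcripts share no identical run longer than 27 bases. Klf4, a monocyte factor (-1.22, limma adjusted p 0.0170), and Jun, a subunit of AP-1 and a partner of PU.1 (-0.87, limma adjusted p 0.00507), were also lower. After median-of-ratios scaling Egr1 (-1.78) and Jun (-0.47) still passed (the Jun call was lost without the variance trend, limma adjusted p 0.0648), while Gfi1b (-1.17, limma adjusted p 0.116) and Klf4 (-0.84, limma adjusted p 0.0610) did not. The Gfi1b call was also lost when either of uninduced replicates 2 and 3 or induced replicates 2 and 3 was left out (limma adjusted p 0.0647 to 0.0969), and the Klf4 call without uninduced replicate 1 or 2 or induced replicate 2 (0.0548 to 0.0684).

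Of 15 further genes tied to early granules, 11 were tested, 1 was called higher and 3 lower, with a median change of -0.27. Hk3, a hexokinase of myeloid cells, rose from 7.77 ± 1.605 to 25.2 ± 0.361 TPM (SD, n = 3 in both groups, with a log2 change of 1.595, limma adjusted p 0.00490) and passed under all 16 alternatives. Nkg7, a granule membrane protein, was at 6.21, 15.8 and 5.84 TPM in the uninduced libraries and listed at 0 in the 3 induced ones (limma adjusted p 0.00378). Serpinb1a, the inhibitor of elastase, cathepsin G and proteinase 3, fell from 15.1 ± 4.80 to 4.005 ± 2.73 TPM (SD, n = 3 in both groups, with a log2 change of -1.77, limma adjusted p 0.0251). Calr, a chaperone needed for myeloperoxidase folding, was called lower as well (-0.62, limma adjusted p 0.0387). After median-of-ratios scaling Hk3 and Nkg7 still passed, and Serpinb1a (-1.42, limma adjusted p 0.112) and Calr (-0.22, limma adjusted p 0.345) did not. Serpinb1a passed in 6 of 16 alternatives, and its call was lost when uninduced replicate 1 or 3 or induced replicate 1 or 3 was left out (limma adjusted p 0.0731 to 0.0813). Calr passed in 5 of 16, and its call was lost with any 1 library left out except uninduced replicate 3 (0.0637 to 0.140). Srgn, the proteoglycan that packs granule proteases and the highest of these genes, was at 437 ± 28.5 and 434 ± 9.75 TPM (SD, n = 3 in both groups, with a log2 change of -0.01, limma adjusted p 0.969), and was called higher in 1 of 16 alternatives, rescaling to nuclear protein-coding genes (0.43, limma adjusted p 0.0176). Ctsc, which activates the granule proteases, was at 22.7, 19.6 and 15.5 against 18.1, 21.8 and 19.8 TPM, with overlap.

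Late granule and neutrophil genes, which also mark mature neutrophils, were detected in both groups. Of 17 listed, 11 were tested, with limma 0 were called higher and 1 lower (1 and 4 at an unadjusted p under 0.05), and the median change was -0.64. Bpi was listed at 0 in all 6 libraries. The summed level of the list was 256 to 338 TPM in the uninduced and 232 to 267 TPM in the induced libraries, which overlapped. After median-of-ratios scaling it was 246 to 270 against 286 to 298, without overlap. That higher scaled sum includes Lyz2, the highest gene of the list, and does not describe most of its genes. The median scaled change of the 11 tested genes was -0.27. Camp, the cathelicidin gene, fell from 16.4 ± 4.30 to 5.83 ± 2.44 TPM (SD, n = 3 in both groups, with a log2 change of -1.38, limma adjusted p 0.0283), a call lost after median-of-ratios scaling (-1.02, limma adjusted p 0.103). It was also lost without uninduced replicate 1 or 3 or induced replicate 1 or 2 (limma adjusted p 0.0600 to 0.105), and passed in 7 of 16 alternatives. Lyz2, lysozyme and the highest of the list, was at 97.9 ± 22.7 and 131 ± 10.2 TPM (SD, n = 3 in both groups, with a log2 change of 0.44, limma adjusted p 0.163), and with median-of-ratios scaling it passed (0.85, limma adjusted p 0.0130).

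Of 21 myeloid receptors and ligands, 13 were tested and 0 passed with limma on the deposited scale (4 at an unadjusted p under 0.05, all higher), with a median change of 0.17. After median-of-ratios scaling 4 passed, all higher: Csf2rb, the shared receptor chain for GM-CSF and interleukin 3 (1.23, limma adjusted p 0.0406), Csf3r, the G-CSF receptor (0.94, limma adjusted p 0.0175), Ifngr1 (1.00, limma adjusted p 0.0311) and Cd34 (0.92, limma adjusted p 0.0204). Csf2rb was at 4.39, 6.31 and 7.18 TPM without induction and at 10.8, 12.5 and 11.3 TPM with it, without overlap on the deposited scale. Of the ligands of the M-CSF receptor, Il34 was listed at 0 throughout and Csf1 was at 1.35 to 4.23 TPM in the uninduced and 0.991 to 2.87 TPM in the induced libraries.

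**Figure D4:**
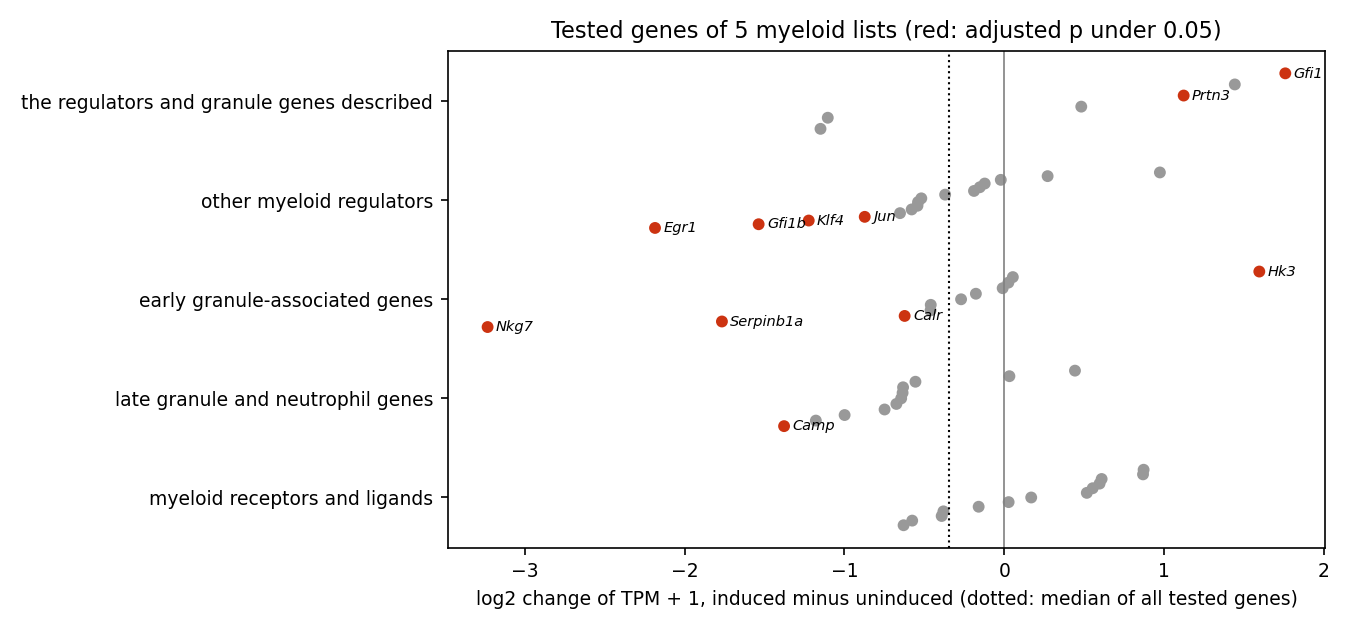
Log2 change of TPM + 1, induced minus uninduced, of every tested gene in the 10 genes described and in the 4 other myeloid lists; red points have an adjusted p under 0.05 and are named, and the dotted line is the median of all tested genes. Gfi1, Prtn3 and Hk3 are the red points above 0, and the other 8 lie below it.

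Markers of the sorted cells and of other cells were compared between the groups as well, and their part in the results above was not tested. In bulk libraries fewer cells of a type and less RNA per cell cannot be told apart. All 12 stem cell markers reached the filter, with 4 called higher and 3 lower. Procr (log2 change 1.15) and Ly6a (1.33, limma adjusted p 0.00694) were among those higher, and Kit (-0.81) among those lower. Kit passed in 6 of 16 alternatives, and did not pass after median-of-ratios scaling, with the replicate block (limma adjusted p 0.0643), and without uninduced replicate 2 or any 1 induced replicate (0.0707 to 0.115). Of 12 proliferation genes 11 were called lower, with Mki67 at 49.9 ± 2.83 against 7.04 ± 0.856 TPM (SD, n = 3 each), and their summed level was 410 to 468 TPM in the uninduced and 85.9 to 116 TPM in the induced libraries. The erythroid list summed to 394 to 467 against 637 to 742 TPM, with 6 of 9 tested genes called higher and 1 lower. Most of the uninduced sum was Car2, the gene called lower, at 384 ± 38.7 against 261 ± 23.0 TPM (SD, n = 3 in both groups, limma adjusted p 0.0372). That call was lost without the filter (0.0734) and after median-of-ratios scaling (0.438). Hbb-bs, among the genes called higher, was at 15.2 ± 7.29 against 177 ± 22.3 TPM (SD, n = 3 in both groups). Monocyte and macrophage markers summed to 3.03 to 8.10 against 11.4 to 16.7 TPM, with 0 of 3 tested genes called by limma (0 at an unadjusted p under 0.05) and Fcgr1 and Vsig4 at 0 throughout. Mast cell, basophil and eosinophil markers summed to 51.7 to 63.9 against 74.4 to 82.9 TPM, with Prss34 and Fcer1a at 0 and 0 of 3 tested genes called by limma (1 at an unadjusted p under 0.05). Most of that sum was Prg2, at 51.0 ± 2.34 against 70.0 ± 2.56 TPM (SD, n = 3 in both groups, limma adjusted p 0.104, and 0.0132 after median-of-ratios scaling). The dendritic list summed to 32.9 to 54.6 against 28.1 to 30.1 TPM (26.3 to 46.3 against 30.4 to 35.1 after median-of-ratios scaling, with overlap), with Siglech, Cd209a, Itgax and Xcr1 at 0 and 0 of 2 tested genes, Tcf4 and Bst2, called by limma (1 at an unadjusted p under 0.05). Megakaryocyte markers summed to 102 to 135 against 119 to 129 TPM (86.6 to 108 against 140 to 146 after median-of-ratios scaling, without overlap), with 2 of 5 tested genes called higher and 1 lower. Ppbp was at 0.876, 0 and 0 against 11.9, 14.6 and 6.64 TPM (limma adjusted p 0.00343), and passed in all 16 alternatives. Pf4 was at 28.4 ± 11.2 against 60.7 ± 8.62 TPM (SD, n = 3 in both groups, limma adjusted p 0.0253), a call that passed in 9 of 16 alternatives and was lost without the filter (0.0915), without the variance trend (0.0779) and with any 1 library left out except uninduced replicate 2 (0.0598 to 0.0823). Gp9 was at 16.7 ± 6.34 against 2.96 ± 2.51 TPM (SD, n = 3 in both groups, limma adjusted p 0.0187), a call that passed in 10 of 16 alternatives and was lost under the 3 rescaled settings (0.0562 to 0.0625), without the filter (0.0966), without the variance trend (0.0510) and without uninduced replicate 2 (0.0724). B cell markers reached 9.86 TPM at most, with 5 of 7 at 0, and of 7 T and NK cell markers 6 were at 0.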

How the data were processed

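RNA of sorted stem cells was purified with a single-cell kit and made into stranded total-RNA libraries read as pairs of 100 bases, per the labels' protocols. The authors deposited one table of TPM with a column per library. The submitters' processing notes list bcl2fastq, HISAT2, StringTie, DESeq2 and build GRCm38, without roles, and the annotation release, filters and strand setting are not given in the sources used here. A deposited GC content column, in percent, was not used. The 60496 rows were summed per gene ID to 55471 IDs, and each column summed to 999976 to 999993 TPM. Groups and replicate numbers come from the titles.

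Tests were two-sided, with limma 3.58.1 in R 4.3.3 on log2(TPM + 1), a variance trend, no covariate and a mean of at least 1 TPM. Fold changes on this scale understate changes of low genes. No count model was used because TPM are not counts. Of 200 genes changed in simulated data with 13470 genes, the step recovered 90% of those changed by 2 log2 units and 26% of those changed by 1 log2 unit, with 8 false of 124 calls. The changed genes were drawn only from those whose mean log2(TPM + 1) stood above that of 5 TPM. The noise was normal and independent between genes, with no offset between the groups. These shares therefore do not cover lower genes or the offset of the real data. Gene coordinates are from GENCODE M21 (GRCm38), in which all 10 gene IDs were found. The genes and lists were chosen with earlier results of these data known. Named genes are the 10 genes and, of each other list, up to 5 with an adjusted p under 0.05 and the highest-expressed. Kit, Procr, Ly6a and Mki67 were set beforehand as markers. Genes that passed after median-of-ratios scaling alone, Ctsc, Il34, Csf1, Cebpb, Cebpd and Cebpg were named after their values were seen. So were the overlapping genes and the other marker genes with values. Alternatives changed the pseudocount (0.1 or 5), the filter (none, or 5 TPM on average), the scale (median-of-ratios, quantile, or nuclear protein-coding genes only), the model (without the trend, with array weights, or with the replicate as a block) and the libraries (1 left out). Leaving out libraries for the ratios, and scaling the summed levels by median-of-ratios factors, were added after seeing the data.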

Additional observations from a re-analysis of the deposited data

How the results depend on the processing

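The 1549 genes called became 752 without the filter, 806 with median-of-ratios scaling, 814 with quantile normalization, 886 rescaled to nuclear protein-coding genes and 767 without the variance trend, and 611 to 1276 with 1 library left out. Median-of-ratios scaling split the calls into 388 higher and 418 lower, against 174 and 1375, because it removes the offset between the groups, and for the other settings the cause was not tested. Adding a replicate block gave 902 calls. Same-numbered libraries did not deviate together (mean correlation of deviations 0.0078), the numbers are not stated to pair samples, and Gfi1 and Prtn3 were called with the block too. Of the other genes named as called, the erythroid genes aside, Calr (limma adjusted p 0.0983), Serpinb1a (0.0514) and Kit (0.0643) lost the call with the block. Without the filter Gfi1b, Serpinb1a, Calr, Camp, Kit, Pf4 and Gp9 lost it (0.0871 to 0.108), and without the variance trend the same 7 genes and Jun did (0.0510 to 0.153).

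The 2 genes called of the 10 became 4 after rescaling to nuclear protein-coding genes, with Irf8 (2.21) and Spi1 (0.93) added, and 1 to 3 with 1 library left out. No direction of the 6 tested genes changed under any of these alternatives. For the other regulators the 4 calls became 2 with median-of-ratios scaling, quantile normalization and no variance trend, and 2 to 4 with 1 library left out. For early granule-associated genes the 4 calls became 2 in these settings, without the filter and with the replicate block, and 2 to 4 with 1 library left out. For late granule genes the 1 call became 0 without the filter and without the variance trend, and 0 to 1 with 1 library left out. For receptors and ligands, 0 became 4 with median-of-ratios scaling and quantile normalization and 5 after rescaling, and stayed at 0 with 1 library left out. Srgn turned from -0.01 to 0.40, 0.31 and 0.43 under the 3 rescaled settings (median-of-ratios, quantile, nuclear protein-coding), and ranged from -0.054 to 0.039 with 1 library left out (0.0021 without induced replicate 2). For genes below the filter, differences moved with the pseudocount. The unknown depth limits all statements on genes near 0. The summed level of Mpo, Elane, Prtn3 and Ctsg, 0.27 log2 units higher in induced cells on the deposited scale, was 0.68 higher after median-of-ratios scaling, an alternative chosen after seeing the data.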
